A study of Mus musculus with 14 samples.

Results

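Cav1, Cav2, Cav3, Cavin1, Cavin2 and Cavin3 encode the caveolins and cavins, and all 6 were found by symbol among the 40481 genes of a bulk RNA-seq count table and the 32285 genes of single-nucleus matrices from mouse gut muscularis. The muscularis holds the smooth muscle layers of the gut together with their nerves, vessels and interstitial cells. All mice were of strain C57BL/6. Mice carried the genotype label Carmn iKO, here KO-labelled, or WT mTmG, here WT. Carmn makes a long non-coding RNA found in smooth muscle, and mTmG is the name of a membrane-targeted fluorescent reporter allele. The sources used here do not give how or in which cells Carmn was deleted, whether the KO-labelled mice carry the reporter, their age or any treatment. Bulk RNA came from KO-labelled colon, WT colon, KO-labelled jejunum and WT jejunum, with 3 libraries in each of the 4 groups, and nuclei were taken from colon only (1 library for each genotype label). The series title puts its question in terms of visceral smooth muscle contraction.

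Caveolae are small flask-shaped pits of the plasma membrane that smooth muscle, endothelial and mesothelial cells carry in large numbers. Caveolin-1 (Cav1), or caveolin-3 (Cav3) in striated muscle, inserts into the inner leaflet and forms the scaffold, and caveolin-2 (Cav2) joins caveolin-1 in mixed oligomers. Cavin-1 (Cavin1, older name Ptrf) coats the pit from the cytoplasm and is needed for its formation, whereas cavin-2 (Cavin2, Sdpr) and cavin-3 (Cavin3, Prkcdbp) join that coat and tune its shape and trafficking.

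The targeted gene was checked first. Carmn stood at 171 to 351 CPM (counts per 1000000 after library scaling) in WT colon and at 304 to 718 in KO-labelled colon, and at 206 to 326 CPM in WT jejunum and 817 to 996 in KO-labelled jejunum. The bulk libraries labelled KO thus held more Carmn counts than WT, by 0.94 (SE 0.34) on the log2 scale in colon and 1.82 (SE 0.34) in jejunum (edgeR quasi-likelihood test, Benjamini-Hochberg adjusted p = 0.234 and 0.0646). In smooth muscle-like colon nuclei the library labelled KO held less, 636 against 1658 CPM of the class's UMIs (unique molecular identifiers), a ratio of 0.384 (95% counting interval 0.357 to 0.412). Counts over a gene do not say whether the deleted stretch is among them, so every direction given here is that of the libraries as labelled. Bulk libraries held 24254905 to 44315104 counts. The KO-labelled colon library t4 stood apart on the first principal component (27.9% of the variance) and the KO-labelled jejunum library m1 on the second (17.4%), and results that rest on them are given with and without them. Nothing in the labels says that the libraries of a group come from separate animals, so p-values measure the spread between these libraries only.

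Cav2 and Cav1 are neighbours on the forward strand of chromosome 6 in GRCm38, at 17281185-17289115 and 17306335-17341452, with 17219 bases between them. Cav3 lies on the same chromosome and strand at 112459505-112472872. Cavin1 lies on chromosome 11 at 100956733-100970887 (reverse strand), Cavin2 on chromosome 1 at 51289126-51302960 (forward) and Cavin3 on chromosome 7 at 105480083-105482300 (reverse). Antisense or overlapping genes share sequence with Cav1 and Cav2 (Gm15581), Cavin2 (9330175M20Rik) and Cavin3 (Gm45667), and the sources used here do not say whether counting used strand, so reads of these partners may be included. RefSeq promoter entries (GRCm38.p6) matched 5 of the 6 genes, with Cavin3 the one not matched. The 250 bases before the start of the 3 caveolin genes are shown because these genes differed most between the KO-labelled and WT colon libraries. Open regions were also listed over their starts, for Cav3 in the WT library only. Cav1 had a second promoter entry, not printed (chr6:17307390-17307639), with an E-box at 158 to 153 bases before its start and no GC box. Capitals mark the GC box GGGCGG on either strand and the E-box CANNTG.
Cav1, chr6:17306085-17306334 (+): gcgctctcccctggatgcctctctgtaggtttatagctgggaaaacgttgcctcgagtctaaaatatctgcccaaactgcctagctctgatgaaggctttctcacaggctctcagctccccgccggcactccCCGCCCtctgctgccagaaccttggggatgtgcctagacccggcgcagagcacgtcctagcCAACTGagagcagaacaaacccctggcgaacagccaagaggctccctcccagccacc
Cav2, chr6:17280935-17281184 (+): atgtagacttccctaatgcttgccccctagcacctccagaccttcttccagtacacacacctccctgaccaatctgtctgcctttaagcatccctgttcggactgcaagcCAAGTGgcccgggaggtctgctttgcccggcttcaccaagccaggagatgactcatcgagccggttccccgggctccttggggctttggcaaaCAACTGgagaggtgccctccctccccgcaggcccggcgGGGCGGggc
Cav3, chr6:112459255-112459504 (+): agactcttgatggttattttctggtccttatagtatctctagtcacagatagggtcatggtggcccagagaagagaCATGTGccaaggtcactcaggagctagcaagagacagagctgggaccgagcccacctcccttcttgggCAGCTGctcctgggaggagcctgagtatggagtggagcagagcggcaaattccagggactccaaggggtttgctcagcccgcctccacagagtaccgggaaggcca
The Cav1 stretch held 1 GC box, 118 to 113 bases before the start, and 1 E-box at 57 to 52, and the Cav2 stretch 1 GC box at 9 to 4 and E-boxes at 140 to 135 and 47 to 42. The Cav3 stretch held no GC box and E-boxes at 174 to 169 and 106 to 101. Further matches were TATAAA on the reverse strand of Cav1 at 221 to 216 and the AP-1 element TGANTCA in Cav2 at 92 to 86. The CArG box, the element of serum response factor, had no match in these stretches on either strand, nor did the TEAD core CATTCC. Over 32817 mouse promoters of the same length the GC box was present in 32.7%, the E-box in 66.2%, TATAAA in 12.4%, TGANTCA in 6.75%, CATTCC in 12.6% and the CArG box in 1.47%. These matches describe letters in a window and were not tested as sites.

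In colon all 6 caveolae genes had lower mean levels in the KO-labelled libraries than in WT, and the 3 caveolins differed most. None of the 6 passed the threshold of 0.05 after adjustment over 20886 genes, where 0.388% of all genes did. Their log2 differences had a median of -0.59, beside 0.0043 over all genes tested, and 3 of the 6 had an unadjusted p below 0.05, as did 3026 of all genes. With DESeq2, which called more of all genes than edgeR did, 2 of the 6 passed, Cav1 (adjusted p = 0.0344) and Cav3 (0.037), and with limma voom 0. The KO-labelled and WT values did not overlap for 4 of the 6 (Cav1, Cav2, Cav3 and Cavin1), against 19.2% of all genes.

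Cav1, the main caveolin of smooth muscle, was measured at 597, 614 and 748 CPM in WT colon libraries t1, t6 and t7 and at 372, 366 and 193 CPM in KO-labelled m1, t4 and t6. Every KO-labelled value lay under every WT value, and t6 was the lowest. The difference was -1.07 on the log2 scale (SE 0.31, 95% interval -1.74 to -0.40, edgeR adjusted p = 0.152). Without the outlying libraries, a choice made after seeing the data, it was -1.20 (edgeR adjusted p = 0.0538). With 1 library left out at a time the difference ran from -1.23 to -0.80.

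Cav2, the partner of caveolin-1, stood at 34.4, 27.9 and 29.1 CPM in WT colon and 22.4, 18.3 and 17.2 in the KO-labelled libraries. The groups were apart, with the KO-labelled m1 nearest to WT. The log2 difference was -0.66 (SE 0.18, interval -1.05 to -0.26, edgeR adjusted p = 0.148). Cav3, the caveolin of striated muscle, was counted at a far lower level, 6.40, 3.32 and 7.92 CPM in WT and 1.45, 3.12 and 2.48 in KO-labelled colon. The groups were apart only by the narrow gap between WT t6 and KO-labelled t4. The log2 difference of -1.32 (SE 0.39, interval -2.17 to -0.48) had an edgeR adjusted p of 0.16.

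The cavins differed less in colon. Cavin1, the coat protein without which caveolae do not form, stood at 1345, 1157 and 1815 CPM in WT and 1108, 736 and 1151 in KO-labelled colon, so that the highest KO-labelled library (t6) lay just under the lowest WT library (t6). Its log2 difference was -0.53 (SE 0.26, interval -1.11 to 0.05, edgeR adjusted p = 0.391). Cavin2 stood at 198, 181 and 216 CPM in WT and 235, 117 and 158 in KO-labelled libraries, where m1 exceeded every WT library. Cavin3 stood at 200.2, 158 and 241 CPM in WT and 135, 210.4 and 116 in KO-labelled libraries, where t4 lay within the WT range. The log2 differences of -0.22 for Cavin2 (interval -0.75 to 0.30) and -0.37 for Cavin3 (interval -1.19 to 0.44) had adjusted p of 0.734 and 0.708 in the edgeR test.

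**Figure D1:**
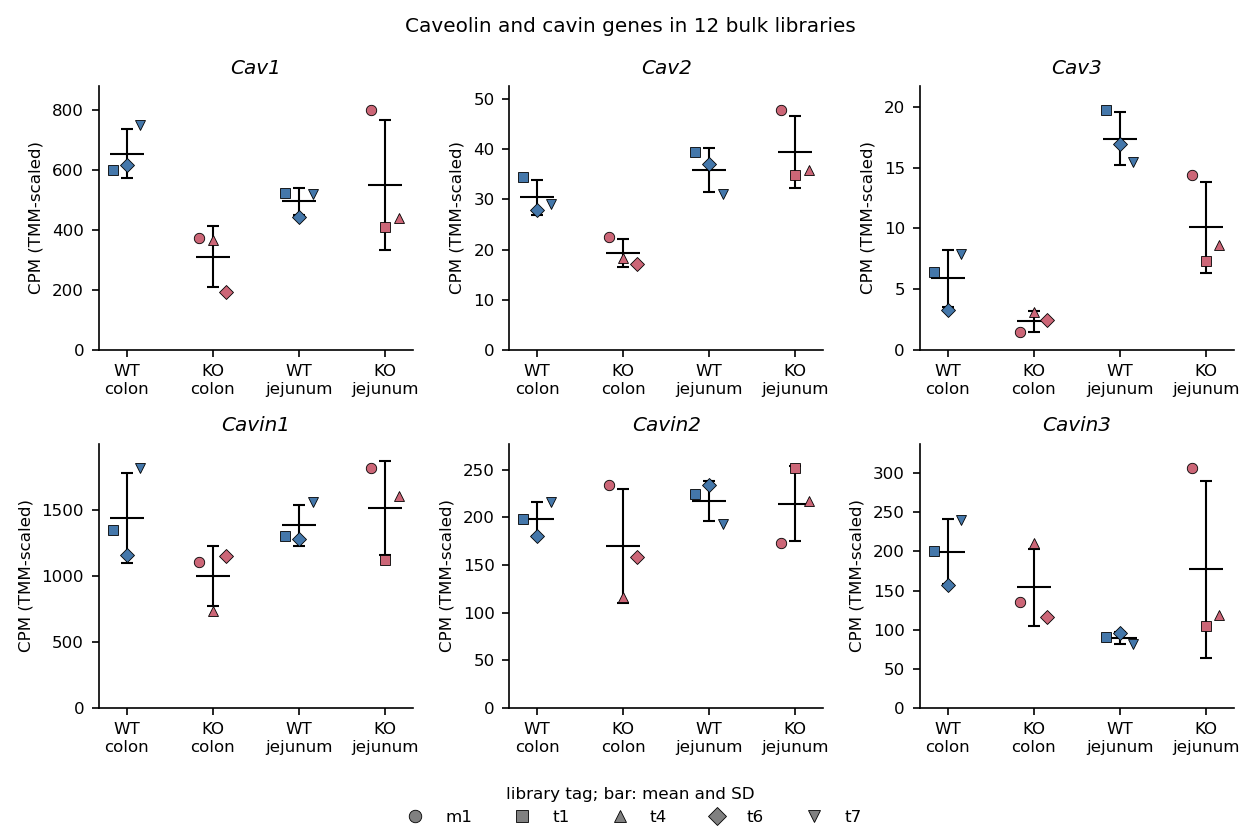
Level of each of the 6 caveolae genes in CPM (linear axis from 0) in every bulk library, by group; each point is 1 library, its shape the library tag, and the bars are mean and SD. In colon the KO-labelled points of Cav1, Cav2, Cav3 and Cavin1 lie under all WT points, and in jejunum those of Cav3 lie under and those of Cavin3 above all WT points.

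Some other cell markers moved with these genes and others did not. The summed level of 10 smooth muscle markers ran from 49916 to 72349 CPM in WT colon and from 33692 to 45262 in KO-labelled colon, and all 10 had lower means in the latter, with a median log2 difference of -0.54 and none past the threshold. Relative to that sum, the KO-labelled over WT ratio of group means was 0.774 for Cav1, 0.999 for Cav2, 0.662 for Cav3, 1.09 for Cavin1, 1.34 for Cavin2 and 1.27 for Cavin3, and the libraries of the groups overlapped for all 6. Fewer cells of a type and less RNA per cell cannot be told apart in bulk RNA. The sum of 6 mesothelial markers was 358 to 827 CPM in WT and 327 to 427 in KO-labelled colon, and that of 7 adipocyte markers 76.1 to 135 and 31.3 to 106. The part of these cells in the differences was not tested. Blood endothelial markers summed to 199.7 to 330.3 CPM in WT and 224 to 361 in KO-labelled colon, and lymphatic endothelial markers to 346 to 488 and 422 to 526. Fibroblast markers summed to 3604 to 5988 CPM in WT and 2701 to 12897 in KO-labelled colon, and macrophage markers to 301 to 448 and 298 to 995. Both were highest in the outlying library t4, and their part in the differences was not tested either.

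Since Cav3 is also the caveolin of striated muscle, markers of striated muscle were read beside it. The 7 skeletal muscle markers summed to 77.3 to 119 CPM in WT colon and 21.4 to 30.3 in KO-labelled colon, and to 117 to 131 in WT jejunum and 41.6 to 94.4 in KO-labelled jejunum. The 5 heart and striated muscle genes summed to 59.3 to 84.6 and 22.6 to 32.3 CPM in WT and KO-labelled colon, and 103 to 145 and 29.9 to 81.7 in jejunum. Both sums were thus lower in the KO-labelled group in each tissue, as Cav3 was, but not all of their genes were. All 6 skeletal muscle genes tested had lower means in KO-labelled colon (median log2 difference -1.68), whereas 4 of the 6 had higher means in KO-labelled jejunum (median 0.11). Of the 4 heart and striated genes tested, 2 were higher and 2 lower in each tissue (medians 0.05 and -0.495). Within KO-labelled jejunum m1 had the lowest heart and striated sum (29.9 CPM) and the highest Cav3. Whether striated muscle fibres were present in these samples, and had a part in the Cav3 difference, was not tested.

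In jejunum the caveolae genes had no common direction. Of the 6, 4 had log2 differences above 0 and 2 below, with a median of 0.13. Without the outlying library m1, 2 were above 0 (Cavin2, 0.087, and Cavin3, 0.30) and 4 below, since Cav1, Cav2 and Cavin1 turned to -0.24, -0.047 and -0.049. None passed the threshold in edgeR, DESeq2 or limma voom, where 0.215% of all genes passed in edgeR. Cavin3 alone of the 6 had an unadjusted edgeR p below 0.05, as did 2762 of all 20886 genes tested. The groups did not overlap for Cav3 and Cavin3, against 22.2% of all genes. Cav1 was measured at 523, 441 and 518 CPM in WT jejunum t1, t6 and t7 and at 798, 409.6 and 440.0 in KO-labelled m1, t1 and t4. Only m1 exceeded the WT range, and the other KO-labelled libraries lay under it. The log2 difference was 0.15 (SE 0.30, interval -0.51 to 0.81, edgeR adjusted p = 0.871), and without m1 it turned to -0.24.

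Cav3 stood at 19.7, 16.96 and 15.5 CPM in WT jejunum and 14.4, 7.28 and 8.60 in the KO-labelled libraries. All KO-labelled values lay under WT, m1 the nearest, with a log2 difference of -0.79 (SE 0.38, interval -1.61 to 0.03, edgeR adjusted p = 0.398). Per 1000 counts of the smooth muscle markers, Cav3 was 0.163 ± 0.0129 in KO-labelled jejunum and 0.361 ± 0.0598 in WT (SD, n = 3 libraries each), without overlap (two-sided exact permutation p = 0.1, the smallest that 3 against 3 allow). Per 100 Cav1 counts it was 1.84 ± 0.0968 and 3.53 ± 0.478 (SD, n = 3 each, exact permutation p = 0.1), again without overlap. On the first scale m1 lay between the other KO-labelled libraries, at 0.158 against 0.153 and 0.177. Its smooth muscle sum was 91088 CPM, where the other KO-labelled jejunum libraries had 47661 and 48554 and WT 45971 to 50504.

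Cavin3 stood at 90.3, 96.3 and 81.1 CPM in WT jejunum and 307, 105 and 119 in KO-labelled m1, t1 and t4. All KO-labelled values lay above WT, but m1 far more so than t1 and t4. The log2 difference of 0.99 (SE 0.38, interval 0.16 to 1.81, edgeR adjusted p = 0.299) was 0.30 without m1 (adjusted p = 0.79). Per 1000 smooth muscle marker counts Cavin3 was 1.67 to 1.96 in WT and 2.204 to 3.37 in KO-labelled jejunum, again without overlap (exact permutation p = 0.1). Cav2 ran from 31.1 to 39.5 CPM in WT and 34.9 to 47.8 in KO-labelled jejunum, Cavin1 from 1279 to 1561 and 1121 to 1817, and Cavin2 from 193 to 234 and 173 to 252. For these 3 genes the KO-labelled libraries overlapped WT, with log2 differences of 0.14, 0.13 and -0.02 (edgeR adjusted p = 0.788, 0.873 and 0.985).

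Markers of other cells also differed between the jejunum groups. The 7 macrophage markers summed to 139 to 341 CPM in WT and 485 to 1153 in KO-labelled jejunum, highest in m1, and all 7 had higher means in the latter (median log2 difference 1.76, none past the threshold). The 8 blood endothelial markers summed to 105 to 230.5 CPM in WT and 239.6 to 431 in KO-labelled jejunum (7 of 8 higher, median 0.44). The 6 vascular mural markers summed to 4095 to 5487 and 2170 to 3504 CPM, lower in KO-labelled jejunum and lowest in m1, although 5 of the 6 genes had log2 differences above 0 (median 0.40). The groups did not overlap for these 3 sums. The 8 fibroblast markers summed to 3056 to 3660 CPM in WT and 2889 to 7531 in KO-labelled jejunum, with overlap and highest in m1. The 7 adipocyte markers summed to 113 to 772 and 103 to 640 CPM, with overlap, and all 7 had log2 differences under 0 (median -1.17). The part of any of these cells in the Cav3 and Cavin3 differences was not tested.

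The difference between the tissues' KO-labelled minus WT effects was negative for all 6 genes and past the adjusted threshold for none in edgeR, DESeq2 or limma voom, as in edgeR for 0% of all genes tested. It was -1.23 for Cav1 (SE 0.43), -0.79 for Cav2 (SE 0.26), -1.36 for Cavin3 (SE 0.53), -0.66 for Cavin1 (SE 0.37), -0.53 for Cav3 (SE 0.53) and -0.20 for Cavin2 (SE 0.34), in log2 units. Unadjusted p was under 0.05 for Cav1 (0.0149), Cav2 (0.00958) and Cavin3 (0.0254), as for 869 of all genes, and adjusted p was 0.941 for 5 of the genes and 0.956 for Cavin2 (edgeR). A differing effect of the genotype label on colon and jejunum was therefore not established for any caveolae gene.

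Between tissues of the same genotype label, Cav2 and Cav3 were lower in KO-labelled colon than in KO-labelled jejunum and passed the threshold, which 1.29% of all genes passed. Cav2 was 19.3 ± 2.77 CPM in colon and 39.5 ± 7.21 in jejunum (SD, n = 3 each), a log2 difference of -1.03 (SE 0.18, edgeR adjusted p = 0.0243). Cav3 was 2.35 ± 0.841 and 10.1 ± 3.77 CPM (SD, n = 3 each), a log2 difference of -2.10 (SE 0.39, edgeR adjusted p = 0.0303). Libraries of the tissues did not overlap for Cav1, Cav2 and Cav3, against 19.6% of all genes. Cav1 had a log2 difference of -0.82 (edgeR adjusted p = 0.194), and Cavin1, Cavin2 and Cavin3 had -0.60, -0.34 and -0.20 (adjusted p = 0.267, 0.492 and 0.818). The call of Cav2 was lost without KO-labelled colon t6 (adjusted p = 0.0841), jejunum t1 (0.0509) or jejunum t4 (0.0579). That of Cav3 held without WT colon t6, WT colon t7 or KO-labelled colon t4 and was lost without any of the other libraries, with adjusted p up to 0.104. Fitted on the KO-labelled libraries alone, both had an adjusted p of 0.144. With the library tag as a fixed replicate block in edgeR, where only m1 and t4 occur in both KO-labelled tissues, neither passed.

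Other markers were lower in KO-labelled colon together with Cav2 and Cav3. The smooth muscle sum was 33692 to 45262 CPM in KO-labelled colon and 47661 to 91088 in KO-labelled jejunum (9 of 10 markers lower, median log2 difference -0.67). The mesothelial sum was 327 to 427 and 540 to 1392 CPM (6 of 6 lower, median -2.08), the vascular mural sum 1031 to 1396 and 2170 to 3504 (3 of 6 lower, median -0.26) and the skeletal muscle sum 21.4 to 30.3 and 41.6 to 94.4 (4 of 6 lower, median -0.13). Per 1000 smooth muscle marker counts Cav2 was 0.380 to 0.606 in colon and 0.525 to 0.737 in jejunum, so the libraries overlapped on that scale. Cav3 was 0.0393 to 0.0927 and 0.153 to 0.177, without overlap. The adipocyte sum was 31.3 to 106 CPM in KO-labelled colon and 103 to 640 in KO-labelled jejunum, with overlap (6 of 7 lower, median -2.47). That of interstitial cell of Cajal markers was 515 to 922 and 954 to 1213 CPM (4 of 5 lower, median -0.24). Lymphatic endothelial markers (422 to 526 and 196 to 317 CPM) and enteric neuron markers (624 to 1197 and 345 to 447) went the other way. The part of the other cells was not tested.

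Between WT colon and WT jejunum no caveolae gene passed in edgeR, where 1.56% of all genes did. An unadjusted p below 0.05 was found for 2 of the 6 (Cav3 and Cavin3), as for 2744 of all 20886 genes tested. Cav3 was the nearest, 5.88 ± 2.34 CPM in colon and 17.4 ± 2.18 in jejunum (SD, n = 3 each; log2 difference -1.56, SE 0.38, edgeR adjusted p = 0.0756). Cavin3 had the opposite order, 199.6 ± 41.6 CPM in colon and 89.2 ± 7.64 in jejunum (SD, n = 3 each; log2 difference 1.16, SE 0.38, edgeR adjusted p = 0.184). Without KO-labelled jejunum m1, which is in neither group, both passed (adjusted p = 0.0417 and 0.0368), and Cav3 also passed with DESeq2 (0.00365) and limma voom (0.0333). The WT libraries of the tissues did not overlap for Cav1, Cav3 and Cavin3, against 22.9% of all genes. The log2 differences of Cav1, Cav2, Cavin1 and Cavin2 were 0.40, -0.24, 0.06 and -0.13 (edgeR adjusted p from 0.656 to 0.974). Marker sums differed too. In WT colon and WT jejunum they were 1214 to 1703 and 4095 to 5487 CPM for vascular mural markers. Mesothelial sums were 358 to 827 and 920 to 1879, and adipocyte sums 76.1 to 135 and 113 to 772. Lymphatic endothelial markers went the other way (346 to 488 and 81.9 to 205). The part of these cells was not tested.

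**Figure D2:**
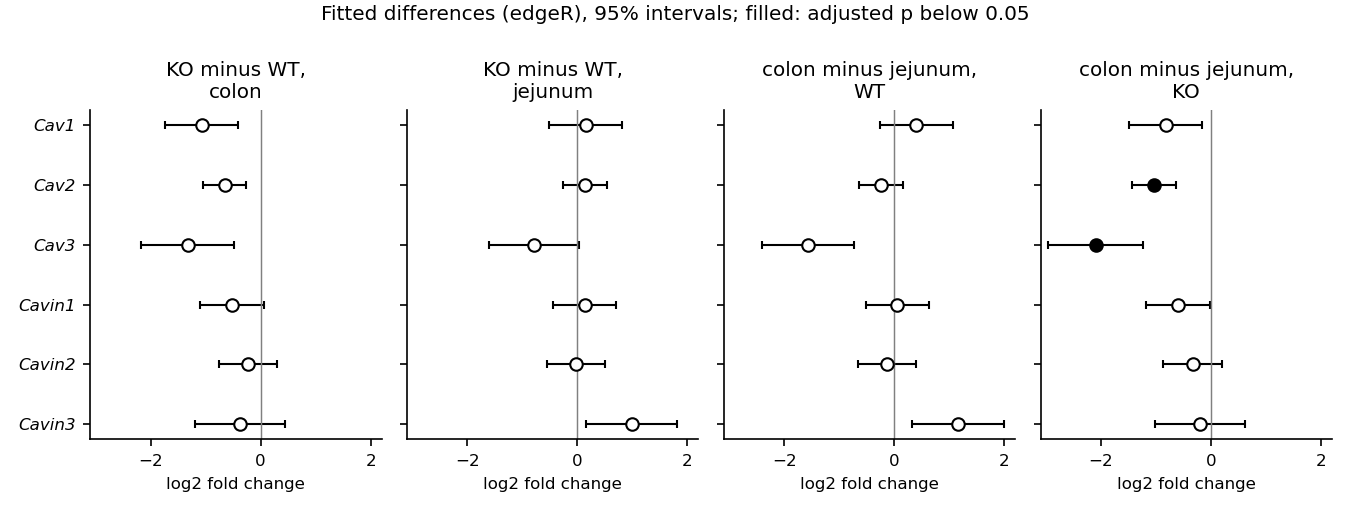
Log2 difference of each caveolae gene with its 95% interval from the edgeR fit, for KO-labelled minus WT in colon and in jejunum and for colon minus jejunum in WT and in KO-labelled mice; filled points passed the adjusted threshold. All 6 estimates for KO-labelled minus WT in colon lie under 0, from -1.32 (Cav3) to -0.22 (Cavin2), and the only filled points are Cav2 (-1.03) and Cav3 (-2.10) between the KO-labelled tissues.

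Levels of different genes were compared per kilobase of exon. In WT colon the order was Cavin1 (401 ± 94.5 CPM per kb), Cav1 (189.6 ± 23.98), Cavin3 (120.1 ± 25.04), Cavin2 (64.9 ± 5.81), Cav2 (9.13 ± 1.04) and Cav3 (5.08 ± 2.02; SD, n = 3), and no neighbours in that order overlapped. In WT jejunum the order was Cavin1 (385 ± 43.7 CPM per kb), Cav1 (143 ± 13.3), Cavin2 (71.1 ± 7.04), Cavin3 (53.7 ± 4.59), Cav3 (15.02 ± 1.88) and Cav2 (10.8 ± 1.31), again without overlap of neighbours. With the longest transcript as length, however, Cav2 was 13.1 CPM per kb there and its libraries overlapped those of Cav3. In both WT tissues the coat gene Cavin1 thus had the highest level per length and Cav1 the next. In KO-labelled colon the means were 278 for Cavin1, 92.6 for Cavin3, 90.1 for Cav1, 55.6 for Cavin2, 5.79 for Cav2 and 2.03 for Cav3 CPM per kb, and Cavin3, Cav1 and Cavin2 overlapped one another. In KO-labelled jejunum they were 422 for Cavin1, 159.5 for Cav1, 107 for Cavin3, 70.2 for Cavin2, 11.8 for Cav2 and 8.71 for Cav3, and Cav1 overlapped Cavin3, Cavin3 overlapped Cavin2, and Cav2 overlapped Cav3.

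Genes that act with caveolae were read from lists. Of 14 coat and neck partners (EHD ATPases and pacsins of the neck, cavin-4, filamin A, Popeye proteins, dysferlin and Trim72), 1 fell in KO-labelled colon and none rose, where 0.388% of all genes passed, with a median log2 difference of -0.22. That gene was Bves, a Popeye-domain protein that binds caveolin-3 and cAMP, at 35.5 ± 7.25 CPM in WT colon and 14.2 ± 3.64 in KO-labelled colon (SD, n = 3 each). Its WT libraries (28.8 to 43.2) and KO-labelled libraries (10.6 to 17.9) were apart, and its log2 difference was -1.32 (SE 0.22, edgeR adjusted p = 0.032). In jejunum none of the 14 passed, with a median of 0.04, and Bves had a log2 difference of -0.89 (SE 0.21, edgeR adjusted p = 0.118). The neck ATPase gene Ehd4 was next in colon (-0.63, adjusted p = 0.219) and was lower in KO-labelled colon than KO-labelled jejunum (-1.09, SE 0.22, adjusted p = 0.0407).

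Of 18 channels, pumps and receptors reported in smooth muscle caveolae, 1 fell in KO-labelled colon and none rose, beside 0.388% of all genes past the threshold (median -0.06). Chrm2, the M2 muscarinic acetylcholine receptor, was at 230.1 ± 46.2 CPM in WT colon (185 to 277) and 84.3 ± 7.96 in KO-labelled colon (75.3 to 90.5; SD, n = 3 each). The groups were apart, with a log2 difference of -1.45 (SE 0.26, edgeR adjusted p = 0.0433). In jejunum none of the 18 passed (median -0.12), and Chrm2 had -1.17 (edgeR adjusted p = 0.0971). Between tissues, in KO-labelled mice, the sodium-calcium exchanger Slc8a1 was lower in colon than in jejunum (-1.16, edgeR adjusted p = 0.0219) and Nos1, the neuronal nitric oxide synthase, higher (1.61, adjusted p = 0.0316). Nos1 is also 1 of the 8 enteric neuron markers, all of which were higher in KO-labelled colon (median log2 difference 1.08). The part of neurons in the Nos1 difference was not tested.

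In the other lists no gene passed in colon or jejunum. Flotillins and tetraspanins, which organise other membrane domains, had medians of 0.05 in colon and 0.34 in jejunum over 8 genes, and Flot1 had the smallest p in both (0.61 and 0.77, edgeR adjusted p = 0.259 and 0.198). The 13 genes of cholesterol and membrane lipid supply, on which caveolae depend, had higher means in KO-labelled libraries for 9 in colon (median 0.20) and 12 in jejunum (median 0.18). Among them Abca1, a cholesterol exporter, had 1.124 in colon (adjusted p = 0.148). The 10 factors of smooth muscle transcription had medians of 0.03 and 0.08, with Srf, serum response factor, at -0.62 in colon and -0.47 in jejunum (adjusted p = 0.219 and 0.371). The 12 dystrophin anchor genes had medians of -0.20 and -0.02, and Sgcb, a sarcoglycan, was lower in WT colon than WT jejunum (-1.08, edgeR adjusted p = 0.0306).

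Over the 12 bulk libraries, which share tissue and genotype groups, the genes whose log2 CPM followed Cav1 most closely among 14275 genes were Akr1b3 (Pearson r = 0.946), Tomm40l (0.936), Pja2 (0.923) and Kcnmb1 (0.919). For Cavin1 they were Bnc2 (0.897), 4833412C05Rik (0.893), Kat2b (0.8901) and Myh11 (0.865). Among the caveolae genes themselves the closest pairs were Cav2 with Cav3 (0.818), Cav1 with Cav2 (0.711) and Cav2 with Cavin1 (0.665), and the most opposed was Cavin2 with Cavin3 (-0.434). These correlations describe the libraries and carry no test.

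In the colon nuclei the caveolae genes were spread over several cell classes. The WT matrix listed 3476 barcodes and the KO-labelled matrix 2164, and 2632 and 1585 nuclei were kept, with medians of 1698 and 1981 UMIs. The libraries shared 11 barcodes. Clustering without the 6 genes gave 24 clusters, of which all but cluster 10 were named from marker lists, in 12 classes. No cluster was named vascular mural, adipocyte or skeletal muscle. With 1 library per genotype no test was possible, and the intervals given are exact 95% counting intervals that leave out the spread between animals. Levels in nuclei are CPM of the summed UMIs of a class, and those of open regions CPM of its fragments.

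Cav1 was highest in mesothelial-like nuclei, the cells of the serosal surface, at 628 CPM in WT (362 UMIs, interval 565 to 696) and 586 in the KO-labelled library (528 UMIs, 537 to 639). Blood endothelial-like nuclei had 369.6 (17 UMIs, 215 to 592) and 308 (32 UMIs), and lymphatic endothelial-like nuclei 346 (35 UMIs) and 309 (37 UMIs). Smooth muscle-like nuclei had 190.1 in WT (453 UMIs, 173 to 208) and 218 in the KO-labelled library (316 UMIs, 194.5 to 243), under the mesothelial-like interval in both libraries. The WT intervals of mesothelial-like and blood endothelial-like nuclei overlapped. Macrophage-like nuclei had 108 and 129 CPM, interstitial cell of Cajal-like nuclei 123 and 53.3, fibroblast-like nuclei 57.1 and 61.9 and glia-like nuclei 15.01 and 17.98. The mesothelial-like over smooth muscle-like ratio was 3.30 in WT (2.87 to 3.80) and 2.69 in the KO-labelled library (2.34 to 3.10).

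A Cav1 UMI was found in 30.4% of WT and 39.7% of KO-labelled smooth muscle-like nuclei (medians of 1917 and 2330 UMIs), and in 51.9% and 55.7% of mesothelial-like nuclei (medians 1284 and 2257). Enteric glia-like nuclei, taken as the background of free RNA, had 3.5% and 5.3% (medians 1874 and 2278). With each nucleus thinned to 500 UMIs the shares were 7.29% and 7.71% in smooth muscle-like, 24.5% and 17.4% in mesothelial-like and 1.03% and 0.535% in glia-like nuclei. The level in smooth muscle-like nuclei therefore lay above that background at equal depth.

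Cavin1 was more strongly weighted to mesothelial-like nuclei, at 328 CPM in WT (189 UMIs, 283 to 378) and 386 in the KO-labelled library (348 UMIs, 347 to 429). Smooth muscle-like nuclei had 35.3 (84 UMIs, 28.1 to 43.6) and 24.8 (36 UMIs, 17.4 to 34.4), giving mesothelial-like over smooth muscle-like ratios of 9.30 (7.16 to 12.2) and 15.6 (11.03 to 22.6). The mesothelial-like class was 13.3% of WT and 16.7% of KO-labelled nuclei and held 35.1% and 55.7% of all Cavin1 UMIs. The smooth muscle-like class was 34.4% and 27.0% of nuclei and held 15.6% and 5.76%. The unnamed cluster 10, whose nuclei had medians of 8067 and 13749 UMIs, was only 1.86% and 2.15% of nuclei. It held 32.5% and 24.5% of all Cavin1 UMIs, more than the smooth muscle-like class in either library, and 23.2% and 17.1% of Cav1 UMIs. Its Cavin1 level was 105 and 165 CPM. Whether these deep nuclei are doublets was not tested beyond the doublet call. Glia-like nuclei had 21.7 and 41.4 CPM, so in the KO-labelled library the smooth muscle-like level lay under that of glia-like nuclei. Other KO-labelled classes lay on both sides of it. Enteric neuron-like nuclei had 2.50 CPM (2 UMIs), epithelial-like 11.1 (3 UMIs) and fibroblast-like 44.2 (20 UMIs). Whether the KO-labelled smooth muscle-like level exceeds background was therefore not settled, and the ratio of 15.6 rests on that level. With 500 UMIs per nucleus a Cavin1 UMI was found in 2.10% of WT smooth muscle-like nuclei (1.27 to 3.26). In WT glia-like nuclei the share was 1.44% (0.580 to 2.94). These intervals overlapped, so at equal depth the WT smooth muscle-like level was not told apart from background either. The ratio of 9.30 rests on that WT level.

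Cavin2 was highest in lymphatic endothelial-like nuclei, at 356 CPM in WT (36 UMIs, 249 to 492) and 242 in the KO-labelled library (29 UMIs, 162 to 348). Mesothelial-like nuclei followed with 182 (105 UMIs) and 134 (121 UMIs), blood endothelial-like with 152 and 125, and smooth muscle-like with 95.7 (228 UMIs, 83.7 to 109) and 108 (157 UMIs, 92.0 to 126). Glia-like nuclei had 5.8 and 10.8. Intervals of lymphatic endothelial-like and smooth muscle-like nuclei were apart in both libraries, and those of lymphatic and blood endothelial-like nuclei overlapped.

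Cav3 was sparse, with 34 UMIs in all WT nuclei and 13 in all KO-labelled nuclei. Of these, 23 (67.6%) and 6 (46.2%) lay in smooth muscle-like nuclei, at 9.65 (6.12 to 14.5) and 4.14 CPM (1.52 to 9.003). Mesothelial-like nuclei held 0 of 576500 UMIs in WT, which allows up to 5.20 CPM by the limit of 3 counts, and 2 UMIs in the KO-labelled library. The 7 skeletal muscle markers gave 60 UMIs in WT and 22 in KO-labelled smooth muscle-like nuclei (25.2 and 15.2 CPM), and the 5 heart and striated genes 23 and 6. Cav2 was at 17.6 CPM in WT smooth muscle-like nuclei (42 UMIs) and 19.1 in mesothelial-like nuclei (11 UMIs), and at 22.7 (33 UMIs) and 41.1 (37 UMIs) in the KO-labelled library. Cavin3 was at 3.78 (9 UMIs) and 36.4 (21 UMIs) in WT, and at 9.65 (14 UMIs) and 75.5 (68 UMIs) in the KO-labelled library, higher in mesothelial-like than in smooth muscle-like nuclei in both. Glia-like nuclei had 5.004 (6 UMIs) and 5.39 CPM (3 UMIs) of Cavin3, and enteric neuron-like nuclei 1.73 (2 UMIs) and 4.99 (4 UMIs). Whether its WT smooth muscle-like level exceeds background was therefore not settled.

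**Figure D3:**
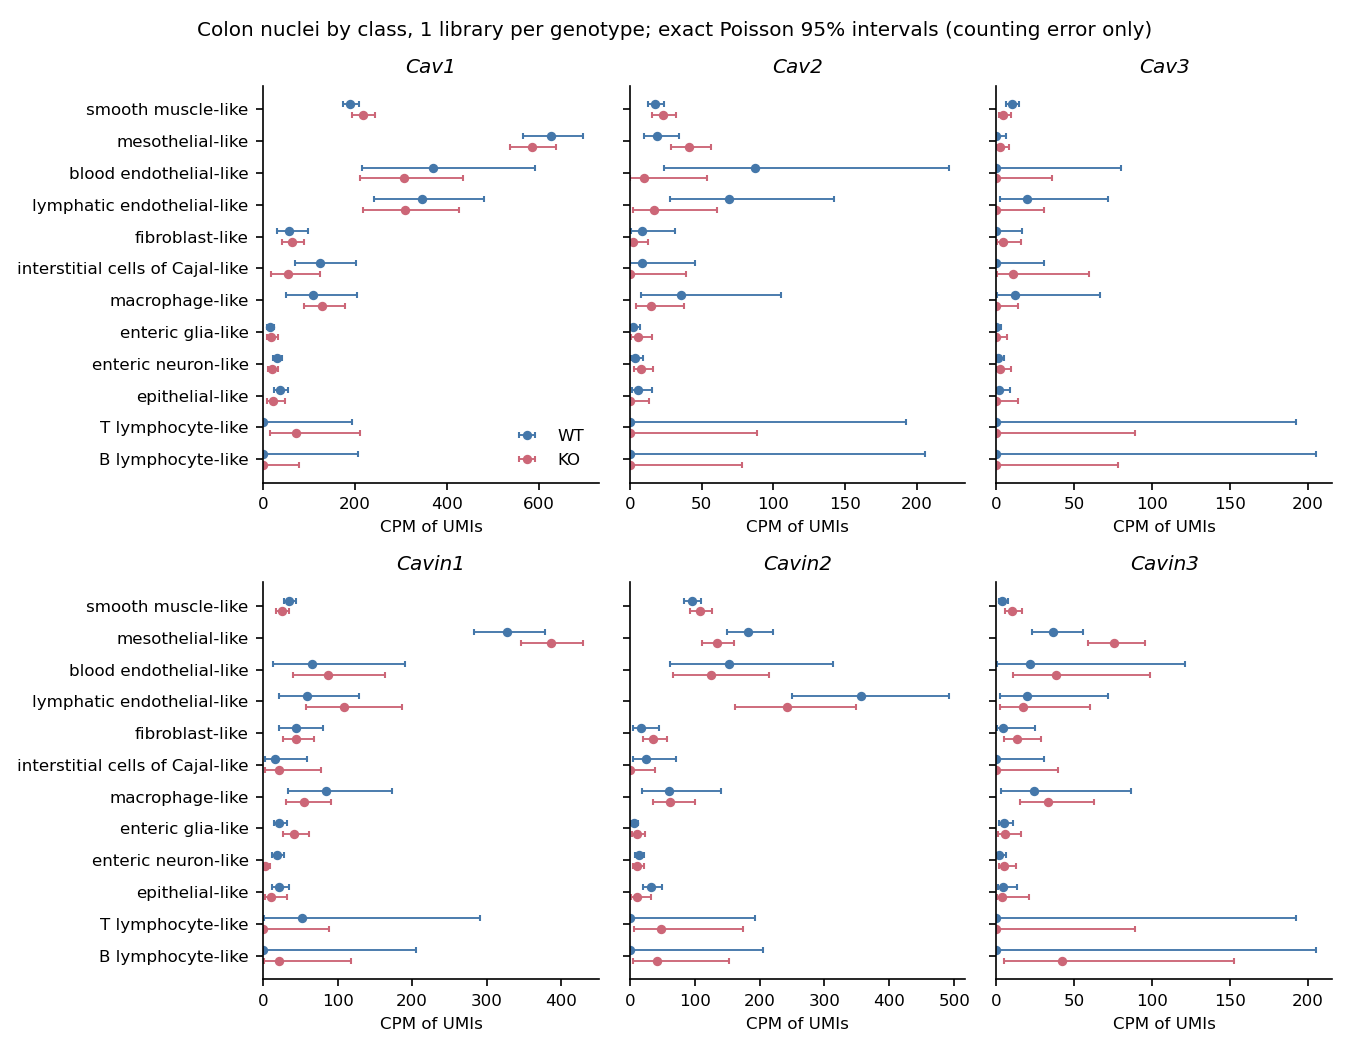
Level of each caveolae gene in CPM of UMIs by nuclear class in the WT and the KO-labelled colon library, with exact 95% counting intervals (linear axis from 0). Cav1 and Cavin1 are highest in the mesothelial-like class (628 and 328 CPM in WT), Cavin2 in the lymphatic endothelial-like class (356), and most Cav3 UMIs lie in the smooth muscle-like class.

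Within smooth muscle-like nuclei the KO-labelled over WT ratio was 1.15 for Cav1 (0.989 to 1.33), 1.29 for Cav2 (0.793 to 2.09), 0.429 for Cav3 (0.143 to 1.08), 0.704 for Cavin1 (0.463 to 1.05), 1.13 for Cavin2 (0.917 to 1.39) and 2.56 for Cavin3 (1.03 to 6.69). Only the Cavin3 interval left out 1, but it rests on 14 and 9 UMIs and on a WT level under that of glia-like nuclei, so no difference is read from it. The Cavin1 ratio likewise has a KO-labelled level under that of glia-like nuclei. In the bulk colon libraries Cav1 had a KO-labelled over WT ratio of 0.475, Cav2 of 0.634 and Cav3 of 0.3996. For Cav1 and Cav2 these bulk ratios lay under the nuclear intervals, and for Cav3 the bulk ratio lay within its nuclear interval. The bulk ratios have a spread of their own. On the ratio scale the bulk interval of the edgeR fit overlapped the nuclear interval for Cav2 and Cav3 but not for Cav1. The cavins also had lower means in KO-labelled bulk colon, whereas the nuclear ratios of Cavin2 and Cavin3 lay above 1. Over all nuclei kept the ratio was 1.59 for Cavin1 (1.41 to 1.79) and 2.79 for Cavin3 (2.09 to 3.77). Bulk RNA comes from all cells of the tissue, whereas the nuclear intervals cover only counting error in a single class. Whether bulk and nuclear ratios differ was not tested. The class was not made of the same clusters in both libraries: cluster 0 held 132 WT and 2 KO-labelled nuclei, cluster 13 held 23 and 0, cluster 15 held 376 and 125, cluster 14 held 167 and 106, cluster 18 held 128 and 90 and cluster 1 held 79 and 105. Averaged over clusters 1, 14, 15 and 18, each weighted in both libraries by its nuclei of the libraries together, the ratios were 1.18, 1.25, 0.646, 0.659, 1.38 and 2.69 in the same gene order.

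Within mesothelial-like nuclei the ratio was 0.934 for Cav1 (0.815 to 1.07), 2.15 for Cav2 (1.08 to 4.68), 1.18 for Cavin1 (0.985 to 1.41), 0.738 for Cavin2 (0.563 to 0.968) and 2.07 for Cavin3 (1.26 to 3.56). Cav2 and Cavin3 were thus higher, and Cavin2 lower, in the KO-labelled library beyond counting error, Cav2 on 37 and 11 UMIs. The Cavin3 difference was not confined to this class. Its ratio was 2.33 in the unnamed cluster (1.31 to 4.20) and 2.79 over all nuclei kept (2.09 to 3.77). Ratios under 1 were found in epithelial-like (0.823, 1 and 3 UMIs) and lymphatic endothelial-like nuclei (0.846, 2 and 2 UMIs). Whether mesothelial-like nuclei differ in this from the rest of the library was not tested. The mesothelial-like class consisted of cluster 7 (152 WT and 84 KO-labelled nuclei) and cluster 9 (199 and 180), the latter led also by the stress and immune genes Slpi and C3. For the partners named in bulk, the ratio in smooth muscle-like nuclei was 0.590 for Bves (0.457 to 0.754, 89 and 248 UMIs), 0.638 for Chrm2 (0.602 to 0.677, 1585 and 4078 UMIs) and 0.741 for Ehd4 (0.537 to 1.01).

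**Figure D4:**
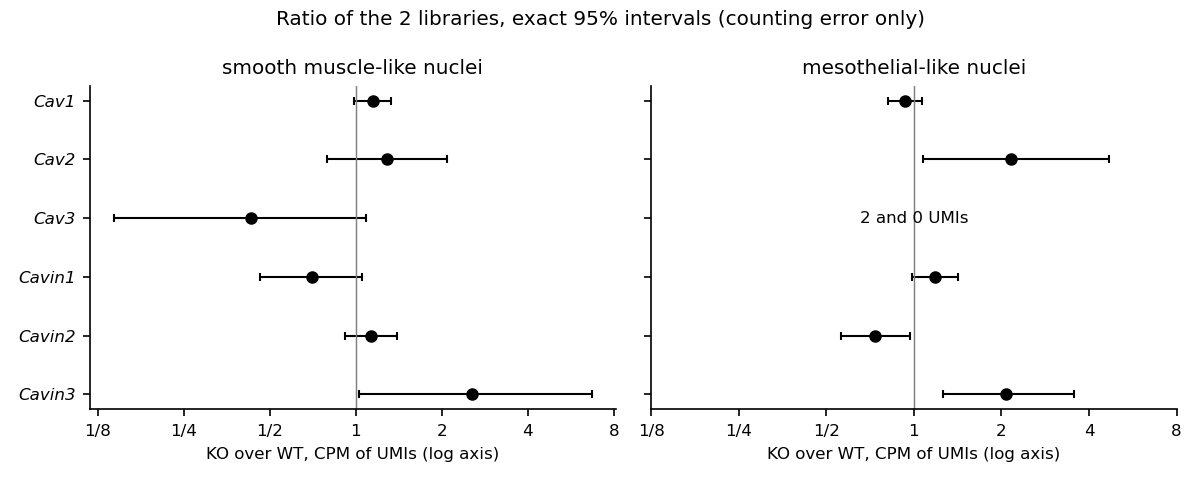
KO-labelled over WT ratio of the CPM of UMIs for the caveolae genes in smooth muscle-like and mesothelial-like nuclei, with 95% counting intervals (log axis; 1 library per genotype). The smooth muscle-like intervals of Cav1 (0.989 to 1.33) and Cavin2 (0.917 to 1.39) hold 1, and the smooth muscle-like ratios of Cavin1 and Cavin3 each rest on 1 level under that of glia-like nuclei.

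Over the 12 named classes, both libraries summed, the genes nearest to Cav1 among 10296 were Sntb2 (Pearson r = 0.944), Sod2 (0.919), Ptpn14 (0.918) and Cd200 (0.908), and those nearest to Cavin1 were Emp3 (0.971), Gm20186 (0.962), Kng2 (0.949) and Clu (0.938). Within the 6 genes the closest pairs were Cav1 with Cav2 (0.894), Cav2 with Cavin2 (0.879), Cav1 with Cavin2 (0.807), Cav1 with Cavin1 (0.803) and Cavin1 with Cavin3 (0.777), and Cav3 with Cavin3 had -0.103. The classes share libraries and differ in depth, so these values are descriptions. The neighbours of Cav1 and Cavin1 over nuclear classes were not those over bulk libraries.

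The matrices also list open chromatin regions, called separately in each library, 35003 in WT and 26493 in the KO-labelled library. Of the caveolae genes Cav1 and Cav2 had regions over their starts in both. The Cav1 region that covers the stretch printed above (chr6:17305677-17306580 in WT, chr6:17305593-17306685 in KO) had 63.8 CPM in WT smooth muscle-like nuclei (25 fragments, 41.3 to 94.3) and 80.2 in KO-labelled ones (17 fragments, 46.7 to 128). A second Cav1 region, about a later start (chr6:17307075-17308078 in WT), had 58.7 (23 fragments) and 47.2 (10 fragments), and the Cav2 region (chr6:17280845-17282063 in WT) 66.4 (26 fragments) and 75.5 (16 fragments). The counting intervals of the libraries overlapped at each of these regions. In mesothelial-like nuclei the first Cav1 region had 51.2 and 71.8 CPM (7 fragments each) and the Cav2 region 117 (16 fragments) and 61.6 (6 fragments).

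At Cav3 a region over the start (chr6:112458596-112459962), which covers the whole Cav3 stretch printed above, was listed in WT only. It held 25 fragments in 23 of 905 smooth muscle-like nuclei and 1 fragment in 351 mesothelial-like nuclei. A region near the 3' end of Cav3 was listed in both libraries, with 6 and 3 fragments in smooth muscle-like nuclei (15.3 and 14.2 CPM). A region over the Cavin1 start was listed in the KO-labelled library only (chr11:100970187-100971088) and one over the Cavin3 start in WT only (chr7:105481893-105482878), and none lay within 10000 bases of Cavin2 in either. Regions were called per library, from unequal numbers of nuclei, so only shared regions were compared and a region listed in 1 library is given as listed there.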

How the data were processed

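Bulk RNA-seq was made from 12 muscularis libraries and single-nucleus data from 2 colon libraries. For bulk RNA the authors deposited raw read counts by gene. For nuclei they deposited matrices of counts of genes and open regions together, 1 per library, and per the file headers cellranger-arc-2.0.0 wrote them. The submitters' processing notes list STAR 2.0.4b, Subread, featureCounts 1.4.5, edgeR, Cell Ranger, GRCm38 and mm10, with no role or order. All gene values of the nuclei matrices were even, against 11.6% (WT) and 11.5% (KO) odd values for regions, so gene values were halved and called UMIs, an inference from the values.

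Of 40757 bulk rows 276 repeats were dropped, and no value column was left unmapped. Counts were fitted with edgeR 4.0.16 (R 4.3.3): filterByExpr (20886 genes), TMM, 1 mean per group over all 12 libraries, robust quasi-likelihood test, two-sided, Benjamini-Hochberg adjustment over all genes tested, threshold 0.05. Standard errors and 95% intervals come from the F statistic and its degrees of freedom. The script recovered known changes on simulated counts. Library sizes for CPM were scaled by TMM, and lengths and positions came from GENCODE M21 (GRCm38). Single quantities were compared by exact permutation over libraries.

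Nuclei with at least 500 UMIs and at most 5% mitochondrial UMIs were kept, 7 WT (0.265%) and 10 KO (0.627%) doublets were removed, and clusters were made with scanpy 1.11.5 (2000 variable genes without the 6 members, 30 components, resolution 1). A cluster took the name of the list with the largest share of markers at least 2-fold up and present in 5% of its nuclei, with at least 3 such markers, a rule set after the clusters were seen. Counting intervals and floors cover counting error only, since barcoded molecules of 1 library are not replicates.

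The 6 members and all lists were chosen with earlier results of these data known. Named genes were the members, Carmn, the 4 nearest genes to Cav1 and Cavin1, and in each list the genes past the threshold or with the smallest p. A result of the channel, pump and receptor list is not reported here, although the list's counts and medians include it. Muc16 was not matched in the bulk table. Alternatives were other scalings, filters, tests (DESeq2 1.42.0, limma 3.58.1 voom), sample sets, a replicate block, libraries left out, and other cluster resolutions, depths and gene lengths.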

Additional observations from a re-analysis of the deposited data

How the results depend on the processing

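In colon no member passed in the edgeR fits or limma voom, whereas 2 passed with DESeq2 (Cav1, adjusted p = 0.0344, and Cav3, 0.0370), which called 856 genes. In jejunum and for the difference between tissues the count was 0 under every alternative run. Between WT tissues, where the main count was 0, the number past the threshold was 1 without a filter, with DESeq2 and with limma voom, and 2 when only the WT libraries were fitted or when both outlying KO libraries were left out. Leaving out 1 library gave 0 to 2. Between KO tissues, where it was 2, it was 0 when only the KO libraries were fitted, and 0 to 2 when 1 library was left out. Total counts in place of TMM shifted the median of all genes between KO tissues by 0.14 and turned the calls from 96 higher and 174 lower to 93 and 90, and between WT tissues from 145 and 180 to 158 and 111. The cause of these moves was not tested.

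The labels do not say whether a library tag shared by colon and jejunum marks 1 animal. Deviations of same-tag colon and jejunum libraries from their group means correlated at 0.1002, -0.008 and 0.061 in WT and -0.163 and -0.0945 in KO. Those of unlike tags in KO ran from -0.390 to 0.348. With 3 libraries per group these values cannot decide whether the tags pair the samples. With the tag as a fixed replicate block in edgeR the counts were 0 between KO tissues and 0 between WT tissues, and as a random replicate block in limma voom 2 and 1.

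The 30 single-gene differences gave 642 values under the alternatives, of which 599 kept direction and side of the threshold, 16 lost and 12 gained a call, and 15 reversed, while 23 of the 30 never reversed. Without KO jejunum m1 the jejunum differences were -0.24 for Cav1, -0.047 for Cav2, -0.049 for Cavin1 and 0.087 for Cavin2, and without t1 0.31, 0.20, 0.29 and -0.17, the ends of their ranges with 1 library left out. Cavin3 between KO tissues ran from -0.49 without KO colon t4 to 0.46 without KO jejunum m1. With both of these left out, chosen after seeing the data, the 5 values were -0.24, -0.047, -0.048, 0.087 and 0.15. Cavin1 between WT tissues was 0.14 without WT colon t6, -0.20 without WT colon t7, -0.041 without WT jejunum t1 and -0.047 without WT jejunum t6. Cavin2 was 0.032 in jejunum without WT jejunum t6, and its difference between tissues ran from -0.51 without KO colon m1 to 0.0048 without KO colon t4.

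In smooth muscle-like nuclei the KO over WT ratio of Cavin1 was 0.384 at 0.5 of the cluster resolution (507 WT and 126 KO nuclei) and 0.317 with nuclei thinned to 500 UMIs (3 and 20 UMIs, interval 0.0604 to 1.07), where Cav2 had 5.29 (5 and 2 UMIs, 0.865 to 55.5) and Cavin2 1.89 (34 and 38 UMIs, 1.16 to 3.09). The mesothelial-like over smooth muscle-like ratio was an alternative added after seeing the data. For Cavin1 in KO it was 25.7 (lower resolution) and 23.2 (thinned, 43 and 3 UMIs, 7.44 to 117). In the main clusters the smooth muscle-like level under this ratio lay below that of glia-like nuclei. For Cav1 in WT the ratio was 4.22 (thinned). With the longest transcript as length, Cav1 was 238 CPM per kb in WT colon and 179.9 in WT jejunum, and Cav2 11.1 and 13.1. On that length the Cav2 and Cav3 libraries of WT jejunum overlapped. Depth limits Cav3, Cav2 and Cavin3 in nuclei most, with at most 34, 105 and 143 UMIs in a library.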
